A study of Mus musculus with 2 samples.

Results

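Pyruvate oxidation, the tricarboxylic acid (TCA) cycle and the entry of glutamine carbon were followed through 30 genes, chosen by symbol as the enzymes, subunits and carriers of these steps. All 30 were listed in the deposited table, which holds 23084 gene symbols, and all 30 passed the filter of a mean of at least 1 FPKM (a read density: reads divided by gene length and by library size). The cells were mouse embryonic fibroblasts (MEF) from ICR mice, cultured connective tissue cells taken from embryos. After calcein and CoCl2 treatment, fluorescence sorting gave a dim pool, named high mPTP opening, and a bright pool, named low mPTP opening. The mPTP is the mitochondrial permeability transition pore, a large channel of the inner membrane. Both groups had the same strain and the same calcein and CoCl2 treatment, and the labels give no genotype or drug that sets them apart. Each group had 1 library, so no p-value was computed, no difference had a replicate check, and all values describe these 2 libraries.

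Pyruvate made by glycolysis enters mitochondria through a carrier of the inner membrane and is turned into acetyl-CoA by the pyruvate dehydrogenase complex, or into oxaloacetate by pyruvate carboxylase. The TCA cycle joins acetyl-CoA to oxaloacetate as citrate and oxidises it stepwise. This yields NADH and reduced flavin for the respiratory chain and building blocks for lipids, nucleotides and amino acids. Glutamine carbon joins the cycle as oxoglutarate through glutamate dehydrogenase or aminotransferases, a route known to be prominent in proliferating cultured cells.

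Promoter windows are shown for 4 genes that mark the range of the results: Cs, with the largest difference among the genes that had a window, Mpc1, with the most negative one, and Sdha and Sdhd, which lay at opposite ends within succinate dehydrogenase. The sequences are RefSeq windows of build GRCm38.p6, each 300 bases from 250 before to 50 after a transcript start, and 28 of the 30 genes had one. Idh3a and Sdhc are named only. Where a gene had several windows (4 genes), the one nearest to the deposited gene end was used. Sdha and Sdhd were picked for display after their values were seen. The windows are Cs at chr10:128337477-128337776 (plus strand), Sdha at chr13:74350191-74350490 (minus strand), Sdhd at chr9:50603800-50604099 (minus strand) and Mpc1 at chr17:8283537-8283836 (plus strand). The start site of the Mpc1 window lies 883 bases from the deposited start of that gene. Capitals mark matches, on either strand, to 8 motifs of factors known at housekeeping and mitochondrial genes, and overlapping matches run together.
Cs: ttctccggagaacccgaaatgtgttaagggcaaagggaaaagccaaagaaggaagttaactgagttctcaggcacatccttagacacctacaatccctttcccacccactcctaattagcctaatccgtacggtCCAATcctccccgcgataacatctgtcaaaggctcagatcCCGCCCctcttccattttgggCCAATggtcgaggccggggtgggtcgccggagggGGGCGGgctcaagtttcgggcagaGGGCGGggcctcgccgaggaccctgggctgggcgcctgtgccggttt
Sdha: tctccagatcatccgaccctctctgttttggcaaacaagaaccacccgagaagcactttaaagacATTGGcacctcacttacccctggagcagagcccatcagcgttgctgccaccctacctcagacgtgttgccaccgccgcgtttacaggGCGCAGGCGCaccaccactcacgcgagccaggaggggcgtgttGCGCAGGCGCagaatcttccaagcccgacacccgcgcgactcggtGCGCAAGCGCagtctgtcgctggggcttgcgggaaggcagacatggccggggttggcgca
Sdhd: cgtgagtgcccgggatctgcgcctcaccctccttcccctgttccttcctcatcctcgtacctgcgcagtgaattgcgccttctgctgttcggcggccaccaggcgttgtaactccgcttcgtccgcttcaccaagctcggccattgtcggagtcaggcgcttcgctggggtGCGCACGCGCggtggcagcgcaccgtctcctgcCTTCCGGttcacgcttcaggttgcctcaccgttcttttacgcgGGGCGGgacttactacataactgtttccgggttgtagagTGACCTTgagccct
Mpc1: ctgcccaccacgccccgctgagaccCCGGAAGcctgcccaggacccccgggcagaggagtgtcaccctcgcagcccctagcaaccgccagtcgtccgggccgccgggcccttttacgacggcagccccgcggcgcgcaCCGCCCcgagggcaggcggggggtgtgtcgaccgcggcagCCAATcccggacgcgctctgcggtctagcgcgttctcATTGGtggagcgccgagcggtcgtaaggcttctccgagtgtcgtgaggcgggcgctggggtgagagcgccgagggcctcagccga

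The NRF1 motif, searched as GCGCA, any base and GCGC, matched 4 of the 28 windows (Dld, Sucla2, Sdha and Sdhd), a share of 14.3%, against 4.60% of all 32851 windows. Sdha held 3 such matches and Sdhd held 1. The SP1 motif GGGCGG matched 20 windows (71.4%), against 35.7% of all windows, and the NF-Y motif CCAAT matched 17 (60.7%), against 37.4%. The ETS motif CCGGAAG matched 7 windows (25%), against 8.86%. Matches were few for the oestrogen-related receptor motif AAGGTCA (2 windows, 7.14%, against 4.72%), for TGACGTCA (2 windows, 7.14%, against 1.79%), for the YY1 motif AAGATGGC (1 window, 3.57%, against 2.75%) and for the E-box CACGTG (1 window, 3.57%, against 7.15%). These counts describe letters in the windows. The set of all windows was not limited to genes measured here or to a single window per gene. The shares therefore do not compare like genes, and measured genes alone were not searched. Sdha and Sdhd both held the NRF1 motif, and their FPKM ratios, high over low mPTP opening, were 1.16 and 1.00. A link between motifs and differences was not tested.

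The depth read from the steps of the FPKM values was 16375735 reads or fragments in the high mPTP opening library and 15060435 in the low mPTP opening library. The 30 genes had between 67 reads (Mpc1 in the high mPTP opening library) and 10424 reads (Cs in the same library). Fibroblast markers were abundant in both libraries, with a summed level of 7227 FPKM in the high and 7329 FPKM in the low mPTP opening library, but single markers differed in both directions. Of 11 measured markers 7 had an interval above 1 and 4 below 1, against 20.4% and 26.4% of all measured genes. Col1a1, a collagen chain, was at 3204 FPKM in the high and 3059 FPKM in the low mPTP opening library. Thy1, a surface protein, had a ratio of 1.44 (1.37 to 1.52), and Dcn, the proteoglycan decorin, a ratio of 0.566 (0.552 to 0.581). S100a4 was listed at 0.105 and 0 FPKM in the high and low mPTP opening libraries. Macrophage markers were present too: 16 of 16 had the lower level in the high mPTP opening library and none was at 0, with a summed level of 500 FPKM, against 1005 FPKM in the low mPTP opening library. Mesothelial markers summed to 20.5 FPKM in the high and 46.8 FPKM in the low mPTP opening library, and Schwann cell and glia markers to 1.74 and 13.8 FPKM in the high and low mPTP opening libraries. Cell division genes were higher, with a summed level of 420 FPKM in the high and 274 FPKM in the low mPTP opening library. Of these, 20 of 20 were positive (high minus low). Among all measured genes 45.4% were positive and 54.6% negative. The part of these marker and cell cycle levels in the results below was not tested. In pooled RNA, fewer cells of a type and less RNA per cell cannot be told apart.

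Most genes of the cycle stood slightly above their low mPTP opening level in the high mPTP opening library, and none was far apart. On the log2(FPKM + 1) scale 26 of the 30 had a positive difference (high minus low) and 4 a negative one, against 45.4% positive and 54.6% negative among all 11898 measured genes. The median difference of the 30 was 0.15, against -0.02 over all measured genes, and single genes ran from -0.14 for Mpc1 to 0.38 for Idh3a. By ratio of FPKM, 15 of the 30 genes were between 1.1-fold and 1.2-fold higher. Their FPKM summed to 1070 in the high and 967 in the low mPTP opening library, a ratio of 1.11.

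By the size rules, 0 of the 30 were 1.5-fold or more higher and 0 were 1.5-fold or more lower, against a background of 1.54% higher and 4.38% lower. At 1.2-fold, 1 gene (Idh3a) was higher and 0 were lower, against 9.60% higher and 17.5% lower. With FPKM as deposited, the 30 thus held a smaller share past 1.2-fold than all measured genes, in either direction. They held a larger share of positive signs. Counting error allowed a finer reading: an exact 95% interval of the FPKM ratio, which covers counting error only, lay above 1 for 18 of the 30 genes (60.0%) and below 1 for 0, and spanned 1 for 12. Among all measured genes 20.4% lay above and 26.4% below. Abundant genes have narrower intervals. At a mean of at least 5 FPKM, 24 of 27 genes of the cycle were positive and 18 had an interval above 1, against 50.3% and 27.3% of the 7324 genes tested at that level. The intervals compare these libraries and leave out variation between cultures and sorts.

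Such small differences depend on how the libraries are scaled. Scaling both libraries to a common sum of FPKM raised every ratio by 0.12 on the log2 scale before the pseudocount, so that 64.4% of all measured genes were positive, and the share 1.2-fold or more higher became 23.1%, with 13.4% lower. Of the 30 genes, 29 were then positive and 16 were 1.2-fold or more higher. The smaller share past 1.2-fold on the higher side was thus reversed by this scaling. With a trimmed mean as the scaling 3 of the 30 were 1.2-fold or more higher, against 11.4% of all measured genes. Relative to the median of all measured genes the median of the 30 lay 0.18 higher with FPKM as deposited and after each scaling tried. A scaling shifts all genes nearly alike, so this gap could hardly change and its constancy is no check. The gap was 0.15 with a pseudocount of 5 FPKM, and also 0.15 once genes averaging under 5 FPKM were dropped. With a pseudocount of 0.1 FPKM, without a filter, or with the highest row of each symbol, the gap stayed at 0.18.

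**Figure D1:**
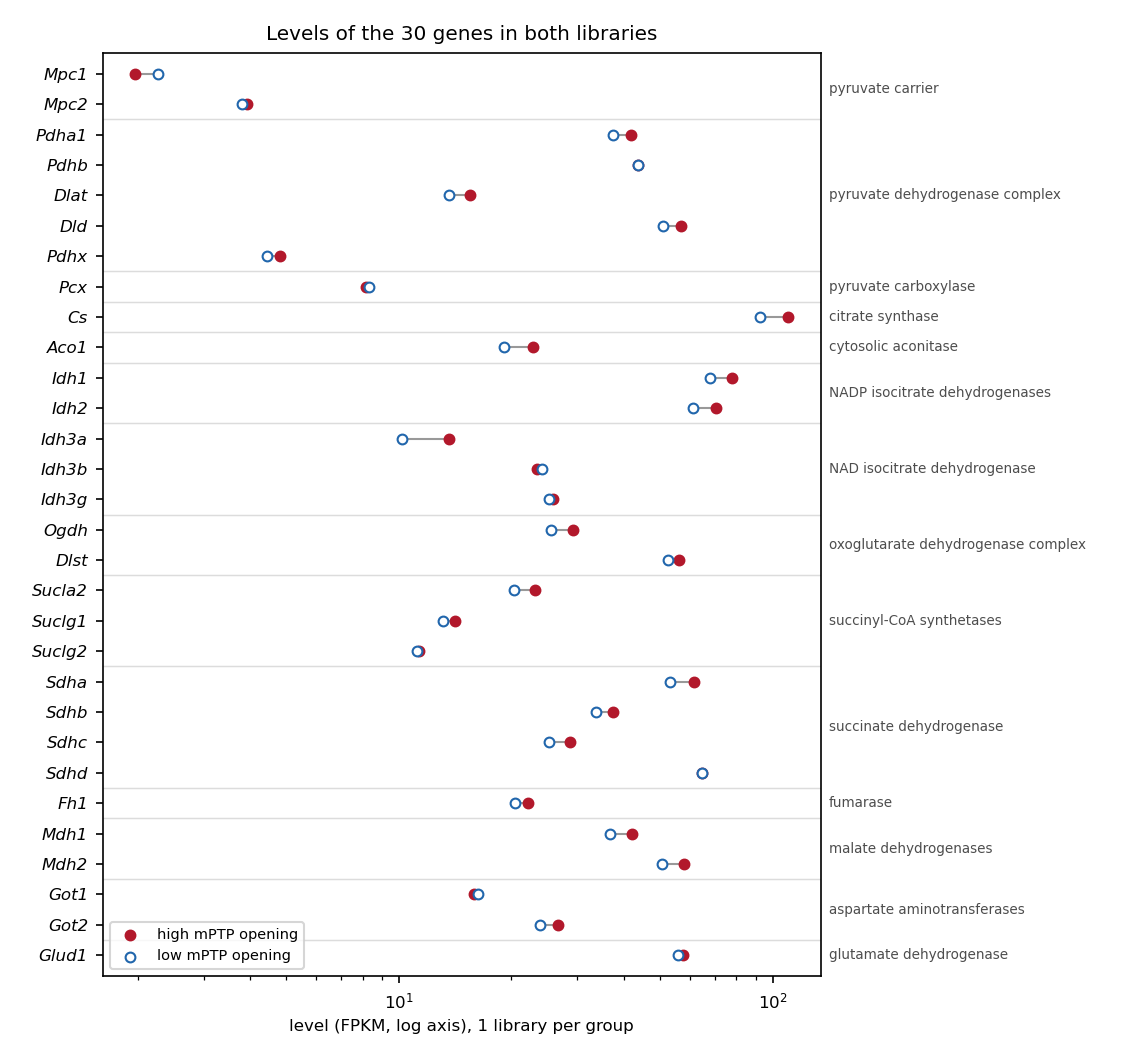
Level of each of the 30 genes (FPKM, log axis) in the high mPTP opening library (filled red) and the low mPTP opening library (open blue), in the order of the pathway, with 1 library per group. Cs is the most abundant at 110 and 92.2 FPKM, and the carrier gene Mpc1 the least at 1.97 and 2.26 FPKM.

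Entry of pyruvate was represented by the lowest FPKM of the set. Such rankings between genes depend on the exon length used. Mpc2 had 473 reads in the high and 420 in the low mPTP opening library over 7344 exon bases. Pdhx, with a higher FPKM, had fewer reads, 310 in the high and 262 in the low mPTP opening library, over 3930 exon bases. Mpc1, a subunit of the mitochondrial pyruvate carrier (chr17:8282904-8297661), was at 1.97 FPKM in the high and 2.26 FPKM in the low mPTP opening library. The ratio of 0.868 had an interval from 0.612 to 1.23, so these read numbers could not resolve a difference, and its sign stayed negative after each scaling. An overlapping transcript and a processed pseudogene hold most of the 26.3% of Mpc1 50-base stretches that other genes share, so its value is also uncertain. Mpc2, the partner subunit, was at 3.93 FPKM in the high and 3.80 FPKM in the low mPTP opening library, with a ratio of 1.04 (0.906 to 1.18). Both carrier genes lay near the low end, while Pdha1 and Pdhb, of the enzyme that uses the imported pyruvate, stood at 37.5 FPKM or more in both libraries.

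The pyruvate dehydrogenase complex was positive for all 5 genes, with an interval above 1 for 3, against 45.4% and 20.4% of all measured genes. Dlat, the acetyltransferase core, was at 15.5 FPKM in the high and 13.6 FPKM in the low mPTP opening library, 1.14-fold higher (1.05 to 1.24). Dld, the dihydrolipoyl dehydrogenase shared with the oxoglutarate complex, was at 56.7 and 50.9 FPKM in the high and low mPTP opening libraries, 1.11-fold higher (1.06 to 1.17). Pdha1, the alpha subunit of the decarboxylase and the site of control by phosphorylation, was at 41.8 FPKM in the high and 37.5 FPKM in the low mPTP opening library, 1.11-fold higher (1.05 to 1.18). Pdhb, the beta subunit of the same enzyme, was at 43.7 against 43.5 FPKM in the high and low mPTP opening libraries, a ratio of 1.00 (0.952 to 1.06). The balance of these subunits, which the enzyme holds in equal number, differed between the libraries: Pdha1 stood at 0.956 of Pdhb in the high and 0.862 in the low mPTP opening library. This difference of balance by 1.11 (1.02 to 1.2) does not depend on library scaling. Both genes share sequence with others, 12.9% of 50-base stretches for Pdha1, mostly with the overlapping gene Map3k15, and 11.4% for Pdhb, mostly with the pseudogene Gm6123. Pdhx, which anchors the dehydrogenase Dld in the complex, was at 4.82 FPKM in the high and 4.43 FPKM in the low mPTP opening library, with an interval that spanned 1 (0.920 to 1.29).

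Pyruvate carboxylase, the other fate of imported pyruvate, differed little. Pcx (chr19:4510472-4621752) was at 8.18 FPKM in the high and 8.30 FPKM in the low mPTP opening library, a ratio of 0.985 (0.879 to 1.1), and a trimmed mean or a common sum as the scaling made its difference positive. Cs, the citrate synthase that opens the cycle (chr10:128337832-128362479), was the most abundant of the 30 genes and had the second largest difference. It was at 110 FPKM in the high and 92.2 FPKM in the low mPTP opening library, 1.19-fold higher (1.16 to 1.23). The level of Cs over that of Pcx was 13.5 in the high and 11.1 in the low mPTP opening library, a difference of balance by 1.21 (1.08 to 1.36).

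Genes of citrate and isocitrate metabolism held the 3 largest differences of the set, Idh3a, Cs and Aco1. Aco1, the cytosolic aconitase that also acts as an iron-sensing RNA-binding protein, was at 22.8 FPKM in the high and 19.1 FPKM in the low mPTP opening library, 1.19-fold higher (1.11 to 1.28). The NADP-dependent isocitrate dehydrogenases, which supply NADPH, were close to each other. Idh1, in the cytosol and peroxisomes, was at 78.0 and 68.0 FPKM in the high and low mPTP opening libraries, 1.15-fold higher (1.09 to 1.2). Idh2, in mitochondria, was at 70.7 FPKM in the high and 61.1 FPKM in the low mPTP opening library, 1.16-fold higher (1.1 to 1.22). Their balance did not shift detectably, at 0.990 (0.920 to 1.07).

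The NAD-dependent isocitrate dehydrogenase, the regulated and irreversible enzyme of the cycle, was uneven across its subunits. Idh3a, the catalytic alpha subunit (ENSMUSG00000032279, chr9:54586334-54604661), was at 13.6 FPKM in the high and 10.2 FPKM in the low mPTP opening library (1132 and 781 reads). This ratio of 1.33 (1.22 to 1.46) was the largest of the 30. On the log2(FPKM + 1) scale the difference of 0.38 stood above that of 95.3% of all measured genes. Idh3b, the beta subunit (chr2:130279309-130284547), was at 23.4 FPKM in the high and 24.1 FPKM in the low mPTP opening library, a ratio of 0.974 (0.900 to 1.05) whose sign turned positive after scaling to a common sum. Idh3g, the gamma subunit (chrX:73778963-73786897), was at 25.9 FPKM in the high and 25.2 FPKM in the low mPTP opening library, a ratio of 1.03 (0.944 to 1.12). By FPKM, which depends on the exon length used, Idh3a was the scarcest of the 3 in both libraries. It stood at 0.582 of Idh3b in the high and 0.425 in the low mPTP opening library. That balance differed by 1.37 (1.21 to 1.55), and the balance of Idh3a to Idh3g by 1.30 (1.14 to 1.47). Idh3b against Idh3g gave 0.947 (0.843 to 1.06), so only the alpha subunit stood away from the other two by counting error. The share of 50-base stretches held by another gene was 0.0% for each of the 3.

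**Figure D2:**
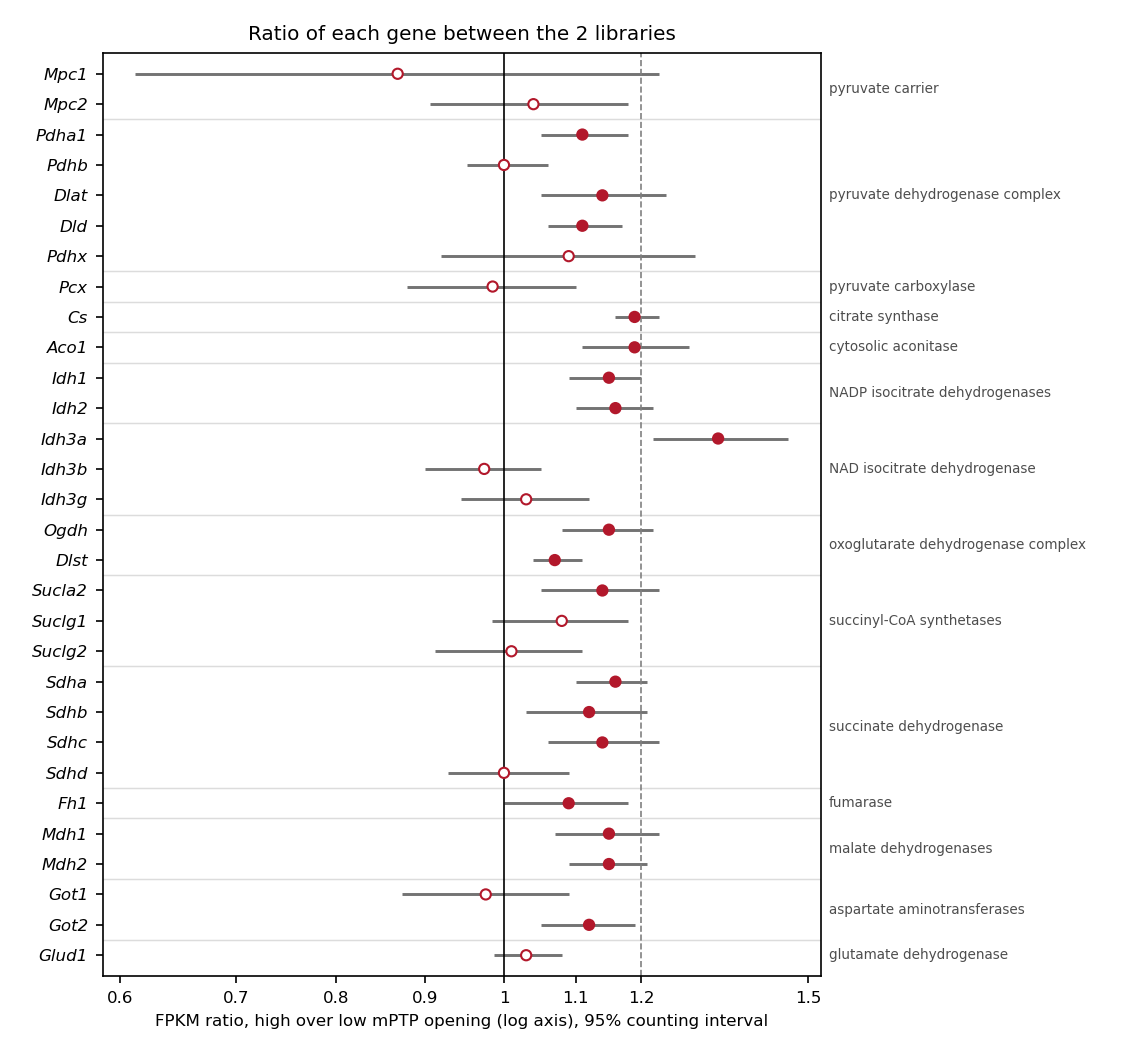
FPKM ratio of each gene, high over low mPTP opening (log axis), with its exact 95% counting interval; filled points have an interval above 1 and the dashed line marks 1.2-fold. Idh3a stands at 1.33, 15 genes lie between 1.1 and 1.2, and 4 genes lie below 1, of which Pcx, Idh3b and Got1 turn positive after scaling to a common sum.

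Both genes of its own of the oxoglutarate dehydrogenase complex had an interval above 1, against 20.4% of all measured genes. Ogdh, the decarboxylating subunit, was at 29.3 FPKM in the high and 25.5 FPKM in the low mPTP opening library, 1.15-fold higher (1.08 to 1.22). Dlst, the succinyltransferase core, was at 56.3 and 52.4 FPKM in the high and low mPTP opening libraries, 1.07-fold higher (1.04 to 1.11). The balance of Ogdh to Dlst differed by 1.07, with a lower limit that rounds to 1.00 and an upper one of 1.14. Related genes outside the set were lower: Ogdhl, a paralog of Ogdh, was at 7.37 FPKM in the high and 10.2 FPKM in the low mPTP opening library, a ratio of 0.722 (0.641 to 0.813). Dhtkd1, which acts in lysine breakdown, was at 1.07 and 1.80 FPKM in the high and low mPTP opening libraries.

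Succinyl-CoA synthetase is built from the shared alpha subunit Suclg1 and either of the beta subunits Sucla2, which makes ATP, and Suclg2, which makes GTP. Sucla2 was at 23.1 FPKM in the high and 20.3 FPKM in the low mPTP opening library, 1.14-fold higher (1.05 to 1.23). Suclg2 was at 11.3 FPKM in the high and 11.2 FPKM in the low mPTP opening library, a ratio of 1.01 (0.912 to 1.11), and Suclg1 at 14.1 and 13.1 FPKM in the high and low mPTP opening libraries, a ratio of 1.08 (0.984 to 1.18). The ATP-forming subunit was 2.05 times the GTP-forming one in the high and 1.81 times in the low mPTP opening library, but the interval of this difference in balance included 1 (0.997 to 1.28). A pseudogene, Gm15163, holds 15.96% of the 50-base stretches of Suclg2.

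Succinate dehydrogenase, which is also complex II of the respiratory chain, had an interval above 1 for 3 of its 4 subunits. Among all measured genes 20.4% had one, and 27.3% at a mean of at least 5 FPKM. Sdha, the flavoprotein that oxidises succinate (chr13:74322254-74350280), was at 61.4 FPKM in the high and 53.2 FPKM in the low mPTP opening library, 1.16-fold higher (1.1 to 1.21). Sdhb, the iron-sulfur subunit, was at 37.5 FPKM in the high and 33.6 FPKM in the low mPTP opening library, 1.12-fold higher (1.03 to 1.21). Sdhc, a membrane anchor, was at 28.7 FPKM in the high and 25.2 FPKM in the low mPTP opening library, 1.14-fold higher (1.06 to 1.23). Sdhd, the other membrane anchor (chr9:50596357-50603812), was at 64.8 FPKM in the high and 64.5 FPKM in the low mPTP opening library, a ratio of 1.00 (0.928 to 1.09). The balance of the 2 anchors, Sdhc to Sdhd, differed by 1.13 (1.02 to 1.27), and that of Sdha to Sdhd by 1.15 (1.05 to 1.26). For Sdhb against Sdhd the interval included 1 (0.994 to 1.25). Dlat lies 30820 bases from Sdhd on chromosome 9, and the balance of Dlat to Sdhd differed by 1.14 (1.01 to 1.28).

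The last steps of the cycle were higher in the high mPTP opening library. Fh1, the fumarase, was at 22.2 FPKM in the high and 20.4 FPKM in the low mPTP opening library, 1.09-fold higher, with an interval whose lower limit rounds to 1.00 and whose upper one is 1.18. Mdh2, the mitochondrial malate dehydrogenase that closes the cycle, was at 57.9 FPKM in the high and 50.5 FPKM in the low mPTP opening library, 1.15-fold higher (1.09 to 1.21). Mdh1, its cytosolic partner in the malate-aspartate shuttle, was at 42.1 and 36.6 FPKM in the high and low mPTP opening libraries, 1.15-fold higher (1.07 to 1.23). The balance of Mdh1 to Mdh2 was 0.728 in the high and 0.725 in the low mPTP opening library, with a ratio of these balances of 1.00 (0.919 to 1.09).

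Entry and exchange of glutamate carbon were less uniform. Glud1, the glutamate dehydrogenase (chr14:34310727-34345144), was at 57.6 FPKM in the high and 55.8 FPKM in the low mPTP opening library, a ratio of 1.03 (0.987 to 1.08), and shares 6.49% of its 50-base stretches with other genes. Got2, the mitochondrial aspartate aminotransferase, was at 26.6 FPKM in the high and 23.8 FPKM in the low mPTP opening library, 1.12-fold higher (1.05 to 1.19). Pseudogenes and an overlapping transcript hold 25.6% of Got2 stretches, so its value is uncertain. Got1, the cytosolic aspartate aminotransferase (chr19:43499752-43524605), was at 15.9 FPKM in the high and 16.3 FPKM in the low mPTP opening library, a ratio of 0.976 (0.873 to 1.09) whose sign turned positive after scaling to a common sum. The balance of Got1 to Got2 was 0.598 in the high and 0.685 in the low mPTP opening library, a difference by 0.873 (0.768 to 0.993). The malate and isocitrate pairs of cytosol and mitochondria kept their balance within counting error, while the aspartate pair did not.

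**Figure D3:**
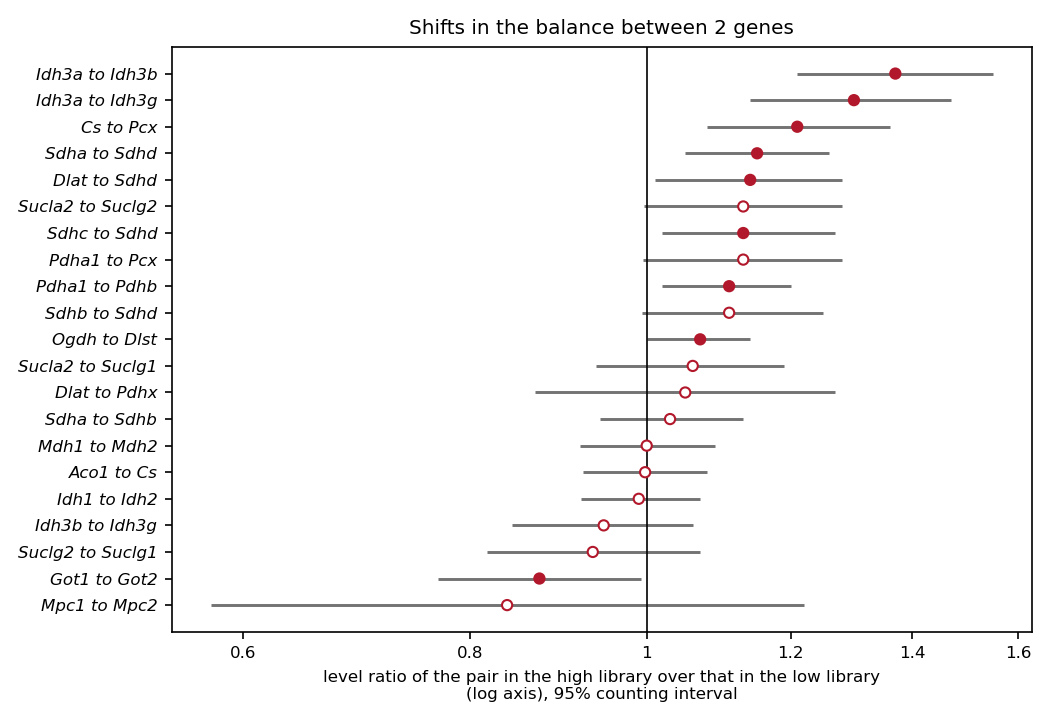
Level ratio of 2 genes in the high mPTP opening library over the same ratio in the low mPTP opening library (log axis), with exact conditional 95% intervals; filled points are clear of 1, and no scaling of the libraries moves these values. Idh3a to Idh3b stands at 1.37 and Got1 to Got2 at 0.873, while Mdh1 to Mdh2 and Idh1 to Idh2 lie at 1.00 and 0.990.

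Of the 21 pairs compared in this way, chosen with these values known, 9 had an interval clear of 1 and 12 did not. The intervals were not adjusted for the number of pairs. In 3 complexes 1 subunit differed from another by this measure without its own ratio leaving 1: Pdhb, Sdhd, and both Idh3b and Idh3g. Of the 26 mitochondrial genes 15 had an interval above 1, and of the 4 cytosolic ones 3 did, against 20.4% of all measured genes.

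**Figure D4:**
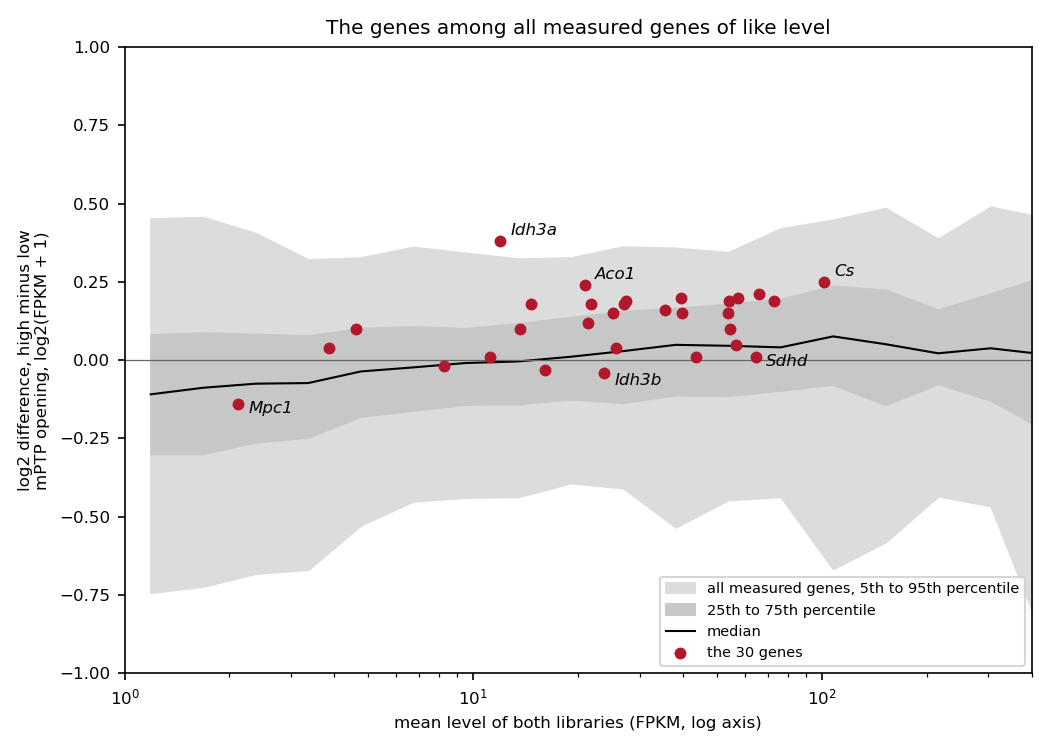
Log2 difference, high minus low mPTP opening, against the mean level of both libraries (FPKM, log axis) for the 30 genes (red) over the spread of all measured genes of like level (grey bands). Idh3a, at 0.38, lies above the grey band of the 5th to 95th percentile at its level, and the other 29 genes lie within it, most of them on the upper side.

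Of the 30 genes 16 lay above the upper quartile of all measured genes, which was 0.12 and which 25% of all measured genes exceed. That quartile is not matched in level and rises among abundant genes. In bins of mean level starting at a log2 FPKM of 4.0 and 6.0 it was 0.137 and 0.195. More than 25% of genes at such levels thus exceed 0.12, so fewer of the 30 would pass a quartile matched in level. Other genes of mitochondria, not matched to the 30 in level, lay differently. Over all measured genes the median difference was -0.02, and 0.002 at a mean of at least 5 FPKM. Of 1211 further measured genes that the deposited table annotates to the mitochondrion 49.5% were positive, and their median was -0.00. For 139 genes of the mitochondrial matrix outside the set the share was 50.4% and the median 0.00. Among these matrix genes 18 were 1.2-fold or more higher and 15 lower, beside 9.60% and 17.5% of all measured genes. These values stand beside those of the 30 as a description, since no test of the difference was possible with 1 library per group.

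Genes that control pyruvate dehydrogenase mostly had the opposite sign to its subunits. The kinases Pdk1 to Pdk4 switch the complex off by phosphorylation, and the phosphatases Pdp1 and Pdp2 switch it on. Of 7 measured kinase and phosphatase genes 6 were negative, with a median difference of -0.22, and the interval lay below 1 for 4 and above 1 for 0. Among all measured genes 54.6% were negative and 26.4% had an interval below 1. Pdk4, the kinase known to respond to fasting and fatty acids, was at 0.887 FPKM in the high and 2.19 FPKM in the low mPTP opening library, a ratio of 0.404 (0.285 to 0.567). It was the only gene of this list 1.5-fold or more lower. Pdk1 was at 6.09 and 7.26 FPKM in the high and low mPTP opening libraries, a ratio of 0.839 (0.760 to 0.925), and Pdk2 at 5.97 and 7.41 FPKM in the high and low mPTP opening libraries, a ratio of 0.805 (0.689 to 0.941). Pdk3, the most abundant of the kinases, had a ratio of 0.982 (0.892 to 1.08). The phosphatase Pdp1 was lower as well, at 6.49 FPKM in the high and 9.13 FPKM in the low mPTP opening library (0.629 to 0.802 for the ratio), while Pdp2 was at 1.68 and 1.38 FPKM in the high and low mPTP opening libraries. Pdpr, the regulatory subunit of the phosphatase, had a ratio of 0.979 (0.873 to 1.1). Pdk3 and Pdpr turned positive after scaling to a common sum. Kinases and a phosphatase with opposite effects on the complex were thus lower together.

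Genes of glutamine transport and synthesis were mixed. Of 6 measured genes 4 were positive, and the median was 0.14. The 6 include the exchangers Slc7a5 and Slc7a11, so the count and the median do not stand for glutamine supply alone. Among all measured genes 45.4% were positive. The transporter Slc1a5 was at 11.7 FPKM in the high and 9.45 FPKM in the low mPTP opening library, 1.24-fold higher (1.11 to 1.38), and Slc7a5, the amino acid exchanger, was 1.22-fold higher (1.17 to 1.27). The uptake genes Slc38a1 and Slc38a2 were each 1.11-fold higher, with intervals above 1. Glul, the synthetase that makes glutamine, was at 19.9 FPKM in the high and 27.8 FPKM in the low mPTP opening library, a ratio of 0.716 (0.661 to 0.776). The cystine and glutamate exchanger Slc7a11 was at 1.35 and 1.67 FPKM in the high and low mPTP opening libraries, a ratio of 0.804 (0.688 to 0.940).

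Exits from the cycle were mostly positive. Of 12 measured genes 9 had a positive difference, the same 9 of 12 had an interval above 1, and 5 reached 1.2-fold. Among all measured genes 45.4% were positive, 20.4% had an interval above 1 and 9.60% reached 1.2-fold higher. The median difference was 0.20. Acly, which splits exported citrate for lipid synthesis, was at 82.9 FPKM in the high and 55.3 FPKM in the low mPTP opening library, 1.5-fold higher (1.44 to 1.56). The cytosolic malic enzyme Me1 was 1.30-fold higher (1.22 to 1.38), and Aldh18a1, the first enzyme of proline synthesis from glutamate, was 1.26-fold higher (1.19 to 1.34). Carriers that move citrate, malate, aspartate and glutamate across the inner membrane had a median of 0.01, with an interval above 1 for 1 of 6, where 20.4% of all measured genes had one. Slc25a1, the citrate carrier, was at 46.5 and 43.0 FPKM in the high and low mPTP opening libraries, and Slc25a11, the oxoglutarate carrier, at 38.5 and 35.7 FPKM in the high and low mPTP opening libraries. Slc25a22, a glutamate carrier, was at 4.13 and 4.58 FPKM in the high and low mPTP opening libraries.

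Other routes that feed acetyl-CoA or succinyl-CoA differed from list to list. Of 13 measured genes of branched-chain amino acid, propionyl and ketone metabolism 8 were positive, against 45.4% of all measured genes. Their median was 0.18, beside 0.15 for the 30 genes. The interval lay above 1 for 7 and below 1 for 2, against 20.4% and 26.4% of all measured genes. At 1.2-fold, 4 were higher and 2 lower, against 9.60% and 17.5%. At 1.5-fold, 1 gene lay in each direction, against 1.54% higher and 4.38% lower. Bcat1, the cytosolic branched-chain aminotransferase, was at 20.6 FPKM in the high and 13.0 FPKM in the low mPTP opening library, 1.58-fold higher (1.49 to 1.68). Bckdha, the alpha subunit of the branched-chain dehydrogenase, was at 2.77 and 4.51 FPKM in the high and low mPTP opening libraries, and Mcee, the methylmalonyl-CoA epimerase, at 4.47 and 7.78 FPKM. Fatty acid oxidation had an interval above 1 for 0 of 18 measured genes and below 1 for 4. Among all measured genes 20.4% lay above 1 and 26.4% below. Its median of -0.03 was positive after scaling to a common sum. Its largest differences were those of Eci2, at 12.8 FPKM in the high and 16.5 FPKM in the low mPTP opening library, of Cpt1c and of the thiolase Acaa2. Glycolysis had a median of 0.03, with 10 of 15 genes positive, against 45.4% of all measured genes. Aldoc and Eno2, isoforms known from neurons, were lower at 1.85 against 3.07 FPKM and 4.37 against 6.52 FPKM in the high and low mPTP opening libraries, while Eno1 was 1.22-fold higher (1.19 to 1.25). The lactate branch had a median of -0.14, which was -0.03 after scaling to a common sum, and its lactate dehydrogenase subunits had opposite signs. Ldhb, the subunit that favours pyruvate, was at 30.3 FPKM in the high and 38.1 FPKM in the low mPTP opening library, a ratio of 0.795 (0.722 to 0.876). Ldha, the more abundant partner, was at 190 FPKM in the high and 172 FPKM in the low mPTP opening library, with an interval above 1 (1.07 to 1.14).

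**Figure D5:**
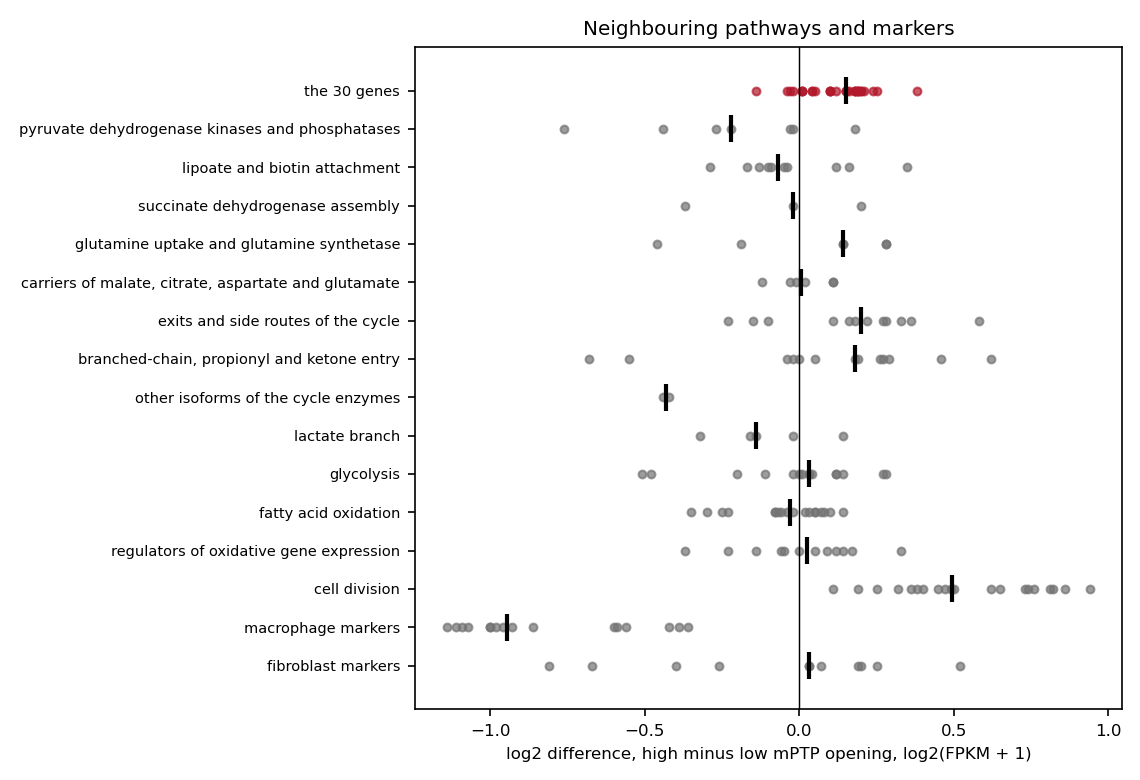
Log2 difference, high minus low mPTP opening, of each measured gene (points) with the median (bar) for the 30 genes, for neighbouring pathways, and for cell division genes and markers. The 30 genes lie between -0.14 and 0.38 with a median of 0.15, exits of the cycle have a median of 0.20, kinases and phosphatases of -0.22 and macrophage markers of -0.94.

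Cofactor and assembly genes had both signs. Genes of lipoate, iron-sulfur cluster and biotin attachment had a median of -0.07, with 3 of 10 positive, against 45.4% of all measured genes. Bola3, which helps build the clusters for lipoate synthesis, was at 5.13 FPKM in the high and 3.83 FPKM in the low mPTP opening library, 1.34-fold higher (1.11 to 1.63). Hlcs, which attaches biotin to carboxylases such as Pcx, had a ratio of 0.764 (0.660 to 0.880), and Fdx1, a ferredoxin, a ratio of 0.870 (0.722 to 1.05). Of 3 measured assembly factors of succinate dehydrogenase 0 had an interval clear of 1. Among all measured genes 20.4% lay above 1 and 26.4% below. Sdhaf4 was at 4.75 and 6.46 FPKM, Sdhaf3 at 1.23 and 0.951 FPKM and Sdhaf2 at 11.4 and 11.6 FPKM in the high and low mPTP opening libraries. The medians of these 2 lists turned positive after scaling to a common sum.

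Regulators of oxidative genes went both ways, with 6 of 12 measured genes positive, a median of 0.02 and a range from -0.37 to 0.33. The interval lay above 1 for 2 and below 1 for 3, against 20.4% and 26.4% of all measured genes. Of all measured genes 45.4% were positive. Nrf1, the factor whose motif was searched above, was at 3.35 FPKM in the high and 3.20 FPKM in the low mPTP opening library, a ratio of 1.05 (0.925 to 1.18). Esrra, the oestrogen-related receptor alpha, had a ratio of 0.831 (0.722 to 0.954), and Tfb1m, a mitochondrial rRNA methyltransferase, a ratio of 1.31 (1.12 to 1.52). Myc, which drives growth genes, was at 14.1 FPKM in the high and 18.5 FPKM in the low mPTP opening library. Ppargc1a and Ppargc1b, coactivators of mitochondrial biogenesis, had means under 1 FPKM.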

How the data were processed

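Total RNA was taken with TRIzol and libraries were made with a TruSeq kit, per the labels' protocols. The submitters' processing notes list TopHat2 2.0.12, Bowtie2 2.2.3 and mm10. How reads were counted, with which annotation and whether by strand, is not given in the sources used here. The authors deposited 1 table of FPKM values, whose columns were matched to the 2 libraries by name.

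Reads were recovered as FPKM times GENCODE M21 exon length times a library denominator, taken as the value shared by the most genes if each had 1 read. Within 0.05 reads, 93.5% of genes with up to 20 reads were whole in the high and 93.2% in the low mPTP opening library (85.7% of all genes in both). Pdhb, Dld, Pcx, Cs, Dlst, Sdha and Glud1 did not, and their reads were rounded, so their intervals are approximate. Ratio intervals are exact Clopper-Pearson intervals at 95%, given the sum of both libraries' reads; those of gene pairs are exact conditional intervals of an odds ratio. They cover counting error only and treat each read as independent. PCR copies are not independent, so the intervals may be too narrow. Recovered reads summed to 1.10 times the denominator in each library. Differences are log2((high + 1)/(low + 1)) of FPKM, which understates low genes. Rows of 1 symbol were added, and sharing between genes was the share of 50-base transcript stretches found in another gene.

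The 30 genes, gene lists and sizes of 1.5-fold and 1.2-fold were chosen with earlier results of these data known. All 30 genes were named, with up to 3 genes of largest difference per neighbouring list. All genes of pyruvate dehydrogenase control and of glutamine transport and synthesis were named as well. Some genes are not reported here and were left out of the lists. Beyond that rule, S100a4, Thy1, Dcn, Ldha, Nrf1, Ppargc1a and Ppargc1b were chosen after their values were seen. Alternatives were 2 other pseudocounts, 5 scalings, 2 filters, the highest row of each symbol, leaving out each step, and 99% intervals. The read-weighted scaling, the pairs and the annotated mitochondrial genes were added after seeing the data. Scripts were tested on simulated data. Statistics used SciPy 1.17.1 and pandas 2.3.3 under Python 3.11.15, and figures matplotlib 3.10.9.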

Additional observations from a re-analysis of the deposited data

How the results depend on the processing

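With 1 library per group, leaving out a replicate was not possible. No paired analysis was possible because each group has 1 library. The median difference of the 30 genes ran from 0.13 to 0.15 when each step was left out in turn, and was 0.14 with a pseudocount of 5 FPKM. It was 0.28 after scaling to a sum of 1000000 and 0.27 after the same without mitochondrially encoded genes. The number of genes 1.2-fold or more higher, 1 with FPKM as deposited, was 3 with a trimmed mean as the scaling, 3 with the median ratio, 2 with a read-weighted trimmed mean (added after seeing the data), and 16 after either scaling to a sum. The number with a negative difference, 4 as deposited, was 1 after either scaling to a sum, and Mpc1 was that gene. The number with an interval above 1, 18 as deposited, was 20 after scaling by a trimmed mean or the median ratio and 17 at 99%, and 0 lay below 1 in each of these. Of the 30 genes, 0 reached 1.5-fold under any pseudocount, scaling, filter or choice of table row. The scalings were not chosen between, and the cause of their difference was not tested. Mpc1, with 67 reads in the high and 71 in the low mPTP opening library, is the gene that depth limits most.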
